A study of Homo sapiens with 18 samples.

Results

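TXNIP and the alpha-arrestin genes ARRDC1, ARRDC2, ARRDC3 and ARRDC4 were followed in U251 cells, an established human glioblastoma line, exposed to enzastaurin or to its DMSO vehicle. They are 5 of the 19775 genes that the array platform named through probe sets of a single gene. They were measured by 8 of the 54613 probe sets on the Affymetrix HG-U133 Plus 2.0 array: 3 for TXNIP, 2 for ARRDC1 and 1 for each of the others. The main probe set of a gene was chosen by its mean over all 18 arrays, the highest being taken, which does not use the groups, and every probe set is reported. The genes were chosen with earlier results of these data known, so the tests below are not independent evidence for that choice. All 5 main probe sets lay above the level filter, an intensity of 102. The nearest members on either side of it were the 2 probe sets of ARRDC1, with means of 142 (226405_s_at, inside) and 24.98 (234607_at, outside).

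The 6 groups were U251 cells given enzastaurin for 4 h, 10 h or 18 h and U251 cells given DMSO for 4 h, 10 h or 18 h, with 3 arrays in each. Enzastaurin blocks protein kinases and was designed with the beta isoform of protein kinase C as its target. The title of the series places its effect under GSK3 inhibition and glucose regulation in glioma. The labels give no dose. All cells were grown in RPMI medium with 5% serum, and total RNA was labelled for the arrays. The labels do not say whether the arrays of a group came from separate cultures, so the p-values measure the spread between these arrays, which may be technical. In RNA from a whole culture, less transcript per cell and fewer cells carrying it cannot be told apart.

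Alpha-arrestins share the arrestin fold and act as adaptors that carry NEDD4 family ubiquitin ligases to membrane proteins, which are then taken up or sorted. TXNIP also binds thioredoxin, a small redox protein, and lowers glucose uptake by promoting the internalisation of glucose transporters. Its transcription is a classic readout of intracellular glucose phosphates: MondoA (MLXIP) or ChREBP (MLXIPL), each paired with MLX, binds carbohydrate response elements built from E-box-like repeats in the promoters of TXNIP and ARRDC4.

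The promoters of TXNIP and ARRDC4 are shown because these genes moved together in the arrays. Each sequence is the 250 bases before the annotated start, from RefSeq on GRCh38.p14, read on the gene's own strand, at chr1:145996580-145996829 (minus strand) for TXNIP and at chr15:97960453-97960702 (plus strand) for ARRDC4. Capitals mark CACGTG, a paired motif (CACGNG, a gap of 5 bases, CACGNG) and CCAAT, the last also as its reverse complement.
TXNIP: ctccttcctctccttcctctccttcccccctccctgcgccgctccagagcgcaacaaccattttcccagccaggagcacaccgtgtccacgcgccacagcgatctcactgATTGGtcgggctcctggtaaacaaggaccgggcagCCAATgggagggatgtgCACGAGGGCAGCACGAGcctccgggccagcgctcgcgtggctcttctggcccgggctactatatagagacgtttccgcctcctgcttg
ARRDC4: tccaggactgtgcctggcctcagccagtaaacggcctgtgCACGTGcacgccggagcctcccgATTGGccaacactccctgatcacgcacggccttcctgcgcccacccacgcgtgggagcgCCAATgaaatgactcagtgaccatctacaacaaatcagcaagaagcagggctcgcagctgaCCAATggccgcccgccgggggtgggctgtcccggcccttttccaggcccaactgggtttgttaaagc

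A set of 5 short motifs were searched on both strands from 250 bases before to 50 bases after each start: the E-box CACGTG, the paired motif of CACGNG repeated after a gap of 5 bases, the CCAAT box, the forkhead motif TGTTTAC and the TATA box TATAAA. The TXNIP window held 1 match to the paired motif, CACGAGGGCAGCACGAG, from -88 to -72 relative to the start, and none to CACGTG. It also held 2 CCAAT boxes, and 1 forkhead match from -124 to -118. The ARRDC4 window held 1 CACGTG from -210 to -205, 3 CCAAT boxes and no paired match. Among all 35114 windows of that length, 0.057% held the paired motif, 7.26% CACGTG, 34.6% CCAAT, 3.42% the forkhead motif and 11.5% TATAAA. The windows of ARRDC1, ARRDC2 and ARRDC3 held neither CACGTG nor the paired motif. Each of these genes had 1 CCAAT box in 1 of its windows, ARRDC3 also had a forkhead match from -29 to -23 in its second window, and ARRDC2 a TATAAA from -30 to -25 in its second window. A second annotated TXNIP window held none of the motifs. A match describes these letters only. TXNIP lies at chr1:145992435-145996579, ARRDC4 at chr15:97960703-97973833, ARRDC3 at chr5:91368631-91383317, ARRDC2 at chr19:18001124-18014102 and ARRDC1 at chr9:137605686-137615360.

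The arrays had been scaled by the submitters to a near-constant trimmed mean, and array medians ran from 99.2 to 125.9. Arrays of the same group correlated at 0.951 to 0.969 on the log2 scale over probe sets. Of 10 astroglial and glioma markers, 7 lay above the level filter, while GFAP, S100B and CHI3L1 lay under it, GFAP at intensities of 5 to 101. Of 20 markers of other cell types, 6 lay above it, led by the keratin KRT8. The summed astroglial markers at 4 h, 10 h and 18 h came to 71890 to 78300, 63930 to 69920 and 55380 to 69050 in enzastaurin cells, and to 71300 to 79920, 64650 to 72030 and 65840 to 66610 in DMSO cells. Under both treatments the 18 h arrays lay below all of the 4 h arrays. The summed other-type markers came to 4375 to 4408, 3255 to 4312 and 3709 to 4425 in enzastaurin cells, and to 4435 to 4562, 3587 to 3772 and 4269 to 4740 in DMSO cells. They were lower at 10 h than at 4 h without overlap, and the treatments overlapped at 18 h. The sums are of intensities, so bright markers weigh most in them. These were VIM (median 32740) and CD44 (median 19070) among the astroglial markers and KRT8 (median 2603) among the others. The part of these sums in the results was not tested.

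TXNIP transcript was higher in enzastaurin cells than in DMSO cells at 10 h and 18 h, while it fell with time under both treatments. At 4 h its main probe set read 6736, 7060.2 and 7359 in enzastaurin cells, against 7237, 6281 and 6262 in DMSO cells. These groups overlapped. At 10 h it read 4351, 4596 and 5170.3 in enzastaurin cells, against 3435, 3382 and 3073 in DMSO cells. At 18 h it read 3188, 3346 and 3314 in enzastaurin cells, against 1825, 1962 and 2135 in DMSO cells. At both later times all 3 enzastaurin arrays lay above all 3 DMSO arrays.

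The limma fit over the 12376 genes that passed the filter gave TXNIP a log2 change, enzastaurin minus DMSO, of 0.10 at 4 h (SE 0.08, adjusted p = 0.654). At 10 h the change was 0.51 (SE 0.08, adjusted p = 0.000211), a 1.42-fold higher level. At 18 h it was 0.73 (SE 0.08, adjusted p = 1.01e-06), a 1.66-fold higher level. The changes are on the log2(intensity + 16) scale. Group means were 4706 ± 420.4 in enzastaurin cells and 3297 ± 196 in DMSO cells at 10 h, and 3283 ± 83.4 and 1974 ± 155 at 18 h (SD, n = 3 each).

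The other TXNIP probe sets carried the same signs in a fit over every probe set on the array. For 201009_s_at the log2 changes were 0.15 at 4 h, 0.59 at 10 h (adjusted p = 0.000485) and 0.80 at 18 h (adjusted p = 4.78e-06). For 201008_s_at they were 0.11, 0.36 and 0.68, and of these the 18 h value passed the threshold (adjusted p = 0.0013). Its 10 h readings were 3128, 2604 and 2717 in enzastaurin cells, against 2639, 1974 and 1999.8 in DMSO cells. These overlapped, and the adjusted p was 0.167. The 3 probe sets were read from the same RNA for 1 gene and are not replicates.

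ARRDC4, which like TXNIP is a MondoA target and lowers glucose uptake, was higher in enzastaurin cells at all 3 times. At 4 h its probe set read 2332, 2429 and 2316 in enzastaurin cells, against 1903, 1608 and 1808 in DMSO cells. At 10 h it read 1764, 1885 and 1736 in enzastaurin cells, against 1054, 890.3 and 905 in DMSO cells. At 18 h it read 1279, 1046 and 951 in enzastaurin cells, against 561, 557 and 567 in DMSO cells. The groups did not overlap at any time, and the lowest enzastaurin array at 18 h stood well above DMSO arrays that lay close together.

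The log2 changes of ARRDC4 were 0.41 at 4 h (SE 0.10, adjusted p = 0.0296), 0.91 at 10 h (SE 0.10, adjusted p = 2.73e-06) and 0.93 at 18 h (SE 0.10, adjusted p = 7.68e-07). They correspond to levels 1.33-fold, 1.88-fold and 1.90-fold those of DMSO cells. By size, the 10 h change was rank 57 and the 18 h change rank 153 among rises of the 12376 genes. The 4 h call rested on small margins. It was lost on leaving out any 1 of the 6 arrays other than DMSO replicate 1 (log2 changes 0.34 to 0.46 over the 6 omissions, adjusted p up to 0.145), with array medians subtracted (0.53, adjusted p = 0.0594), with no trend in the variance prior (0.41, adjusted p = 0.0595) and in the fit over every probe set (adjusted p = 0.0751).

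**Figure D1:**
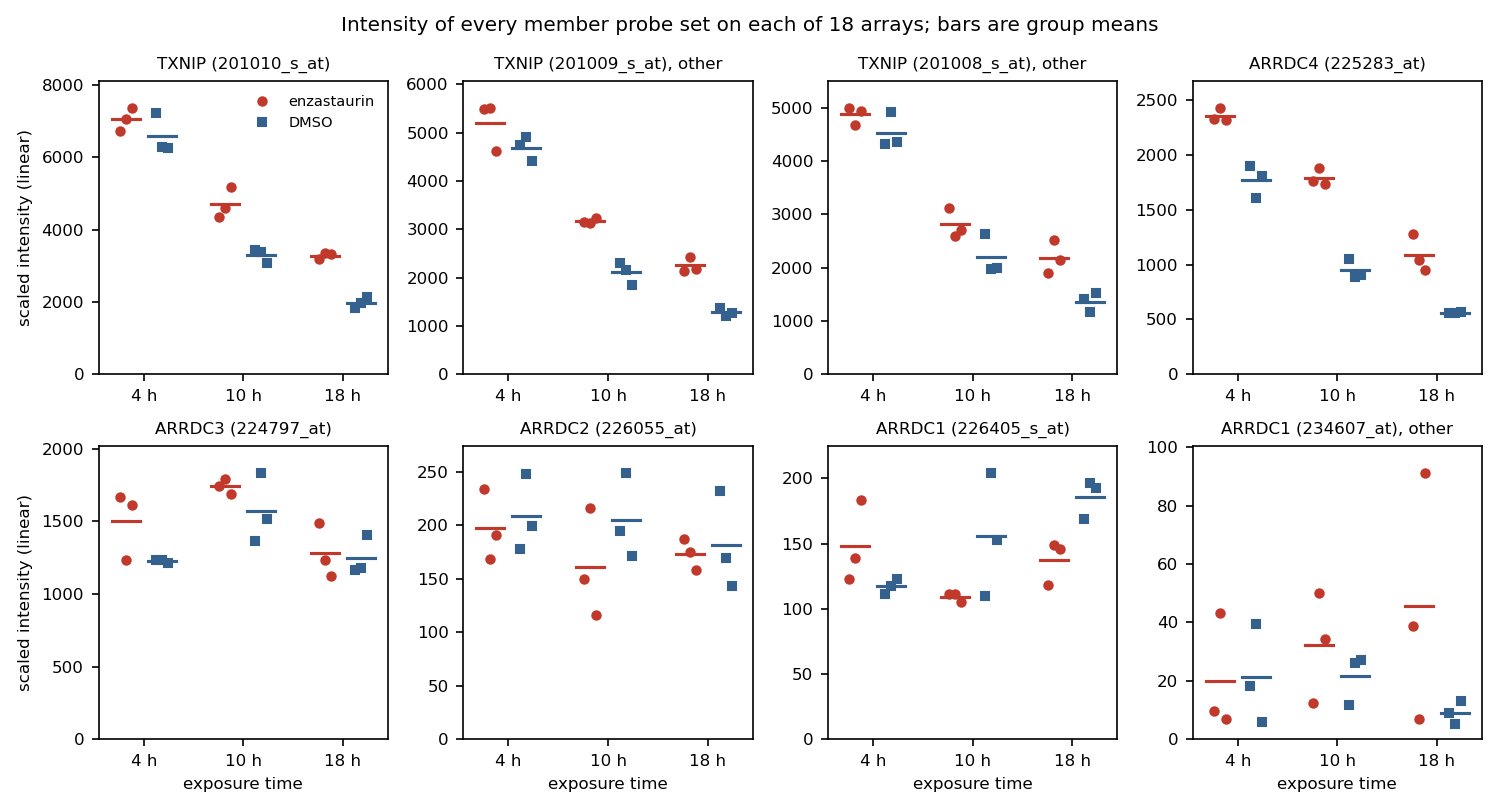
Scaled intensity (linear axis from 0) of each of the 8 probe sets on every array, by exposure time in h, with enzastaurin arrays as red circles, DMSO arrays as blue squares and bars for group means. TXNIP and ARRDC4 descend with time in both treatments, with enzastaurin above DMSO at 10 h and 18 h for the main probe sets, while ARRDC3, ARRDC2 and ARRDC1 show no shared order.

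ARRDC3, an alpha-arrestin that directs beta-adrenergic receptors and integrin beta 4 into endosomes, passed no test between treatments. At 4 h it read 1669.8, 1237 and 1611 in enzastaurin cells, against 1232, 1235 and 1215 in DMSO cells. The groups were apart, by a narrow margin at the lowest enzastaurin array, and the log2 change of 0.28 had an adjusted p of 0.327. At 10 h the readings were 1742, 1794 and 1692 in enzastaurin cells, against 1367, 1834 and 1519 in DMSO cells. At 18 h they were 1487, 1235 and 1126 in enzastaurin cells, against 1166, 1182 and 1403 in DMSO cells. The groups overlapped at both later times. The change was 0.16 at 10 h (95% interval -0.10 to 0.41) and 0.03 at 18 h (95% interval -0.22 to 0.28).

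ARRDC2, a further alpha-arrestin, was read at 116 to 249 over the 18 arrays. At 4 h it read 234, 168 and 191 in enzastaurin cells, against 178, 248 and 199 in DMSO cells. At 10 h the values were 149.5, 216 and 116 in enzastaurin cells, against 195, 249 and 171 in DMSO cells. At 18 h they were 187, 175 and 158 in enzastaurin cells, against 232, 169.7 and 143 in DMSO cells. The groups overlapped at every time. The log2 changes were -0.07 at 4 h, -0.35 at 10 h and -0.04 at 18 h, and the interval at 18 h ran from -0.54 to 0.46.

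ARRDC1, which drives the budding of vesicles from the plasma membrane with TSG101, also passed no test. Its main probe set read 123, 139 and 184 in enzastaurin cells at 4 h, against 111, 117.5 and 123 in DMSO cells. At 10 h it read 112, 111 and 105 in enzastaurin cells, against 110, 204 and 152.5 in DMSO cells. At 18 h it read 118, 149 and 146 in enzastaurin cells, against 169, 197 and 193 in DMSO cells. The enzastaurin arrays thus lay above the DMSO arrays at 4 h, overlapped them at 10 h and lay below them at 18 h. The log2 changes were 0.29, -0.42 and -0.40, with adjusted p of 0.669, 0.338 and 0.295. The dim probe set 234607_at ranged from 5.2 to 91.2 over the arrays and changed by 1.04 at 18 h, with overlapping groups and an adjusted p of 0.338. Its sign there was opposite to that of the main probe set.

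**Figure D2:**
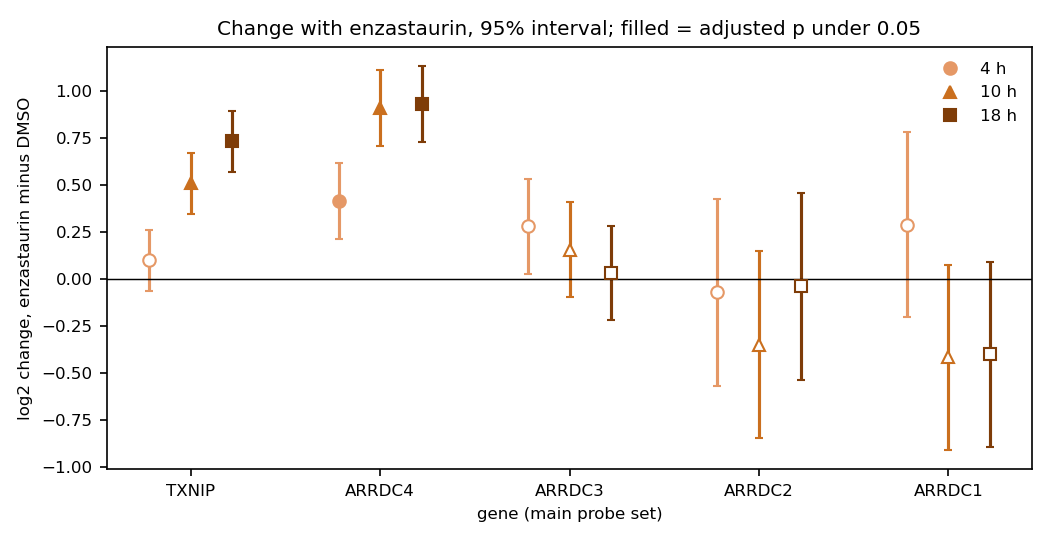
Log2 change, enzastaurin minus DMSO, of the main probe set of each gene at 4 h, 10 h and 18 h, with 95% intervals, and filled symbols for adjusted p under 0.05. ARRDC4 is filled at all 3 times and TXNIP at 10 h (0.51) and 18 h (0.73), while no symbol of ARRDC3, ARRDC2 or ARRDC1 is filled.

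Of the 5 genes, 1 was called at 4 h, where 1.81% of all tested genes were called. At 10 h 2 were called, beside 8.45% of all genes, and at 18 h 2 were called, beside 16%. All of these calls were higher in enzastaurin cells, a direction in which 0.558%, 3.77% and 8.1% of all genes were called at the 3 times. The median log2 change of all tested genes lay within 0.02 of 0 at each time.

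The change of the enzastaurin effect with time was tested as an interaction. For TXNIP the effect at 18 h exceeded that at 4 h by 0.63 on the log2 scale (95% interval 0.40 to 0.86, adjusted p = 9e-04). For ARRDC4 it exceeded it by 0.52 (95% interval 0.23 to 0.80, adjusted p = 0.0228). These 2 of the 5 genes were called, where 7.78% of all genes were called in either direction and 4.07% higher. From 4 h to 10 h the effect grew by 0.41 for TXNIP (adjusted p = 0.0781) and by 0.50 for ARRDC4 (adjusted p = 0.0856), and no member was called by limma, against 1.41% of all genes. The unadjusted limma p there was 0.00134 for TXNIP, 0.00164 for ARRDC4 and 0.0476 for ARRDC1, the last with a difference of -0.70. It was 0.417 for ARRDC2 and 0.477 for ARRDC3. The share of all genes with an unadjusted p under 0.05 was not counted, so the 1.41% cannot be set beside these values.

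Between 10 h and 18 h the effect differed by 0.22 for TXNIP (adjusted p = 0.384) and by 0.02 for ARRDC4 (95% interval -0.27 to 0.30, adjusted p = 0.976). None of the 5 genes was called there by limma, none had an unadjusted p under the threshold either, and 2.23% of all genes were called. The 18 h against 4 h call of ARRDC4 was lost without enzastaurin 18 h replicate 1 (0.40, adjusted p = 0.064), enzastaurin 4 h replicate 1, or DMSO 4 h replicate 1 or 3 (adjusted p up to 0.0647), with array medians subtracted (0.40, adjusted p = 0.246) and in the fit over every probe set (adjusted p = 0.0605). In that fit the interaction of the other TXNIP probe sets was 0.66 (201009_s_at, adjusted p = 0.00544) and 0.57 (201008_s_at, adjusted p = 0.109).

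Both genes fell with time under both treatments. The summed astroglial markers given above were also lower at 18 h than at 4 h, and their part in this was not tested. In enzastaurin cells TXNIP averaged 3283 at 18 h and 7052 at 4 h, a log2 change of -1.10 (adjusted p = 1.21e-09), and in DMSO cells 1974 at 18 h and 6593 at 4 h, a change of -1.73 (adjusted p = 6.63e-12). ARRDC4 changed by -1.11 in enzastaurin cells (adjusted p = 2.47e-08) and by -1.63 in DMSO cells (adjusted p = 4.99e-10). In DMSO cells these falls were rank 13 and rank 17 by size among the 12376 genes. The level at 18 h as a share of that at 4 h was 0.467 for TXNIP and 0.463 for ARRDC4 in enzastaurin cells, and 0.301 and 0.324 in DMSO cells. The DMSO arrays at 18 h enter both this fall and the comparison of treatments at 18 h.

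The fall was present over both intervals. From 4 h to 10 h TXNIP changed by -0.58 in enzastaurin cells and by -0.99 in DMSO cells, and from 10 h to 18 h by -0.51 and -0.74. ARRDC4 changed by -0.39 in enzastaurin cells and by -0.89 in DMSO cells over the first interval, and by -0.72 and -0.74 over the second. All 8 of these changes passed the threshold, and in each the later arrays lay below all of the earlier ones. The ARRDC4 change from 4 h to 10 h in enzastaurin cells was not called with array medians subtracted (adjusted p = 0.0649). The second TXNIP probe set, 201009_s_at, changed by -1.20 in enzastaurin cells and by -1.86 in DMSO cells between 4 h and 18 h, and the third, 201008_s_at, by -1.16 and -1.73. From 10 h to 18 h in enzastaurin cells 201008_s_at changed by -0.37 and was not called in the fit over every probe set (adjusted p = 0.121).

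ARRDC3 did not share this course. In enzastaurin cells it averaged 1506 ± 235 at 4 h, 1742 ± 51.0 at 10 h and 1283 ± 185 at 18 h, and in DMSO cells 1228 ± 10.8, 1574 ± 238 and 1250 ± 132.7 (SD, n = 3). The 10 h mean was the highest in each treatment. The change from 10 h to 18 h in enzastaurin cells, -0.45, passed the threshold (adjusted p = 0.0195), and it was lost on leaving out any 1 of 4 of the 6 arrays: enzastaurin 10 h replicate 1 or 2, or enzastaurin 18 h replicate 2 or 3 (adjusted p up to 0.109). It was also lost in the fit over every probe set (adjusted p = 0.0507). The change from 4 h to 10 h in DMSO cells was 0.34 (adjusted p = 0.0529). For ARRDC1 the change from 4 h to 18 h was -0.09 in enzastaurin cells and 0.60 in DMSO cells (adjusted p = 0.0821 in DMSO cells), and for ARRDC2 it was -0.16 and -0.20.

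**Figure D3:**
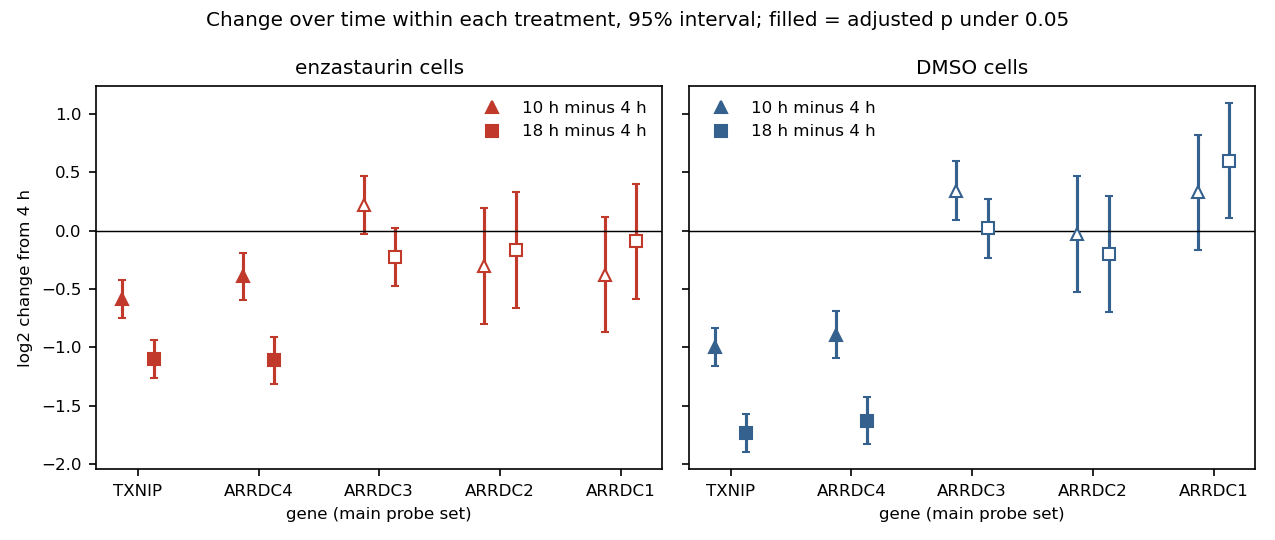
Log2 change from 4 h to 10 h (triangles) and from 4 h to 18 h (squares) of each main probe set, in enzastaurin cells (left) and DMSO cells (right), with 95% intervals and filled symbols for adjusted p under 0.05. TXNIP and ARRDC4 lie below 0 throughout, reaching -1.10 and -1.11 at 18 h in enzastaurin cells and -1.73 and -1.63 in DMSO cells. No symbol of the other 3 genes is filled.

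In enzastaurin cells 2 of the 5 genes were called from 4 h to 10 h (17.2% of all genes), 3 from 10 h to 18 h (11.1%) and 2 from 4 h to 18 h (30%). In DMSO cells 2 were called over each of these spans, where 18.1%, 5.32% and 20.3% of all genes were called. All of these member calls were falls, a direction in which 6.92%, 5.64% and 13.6% of all genes were called in enzastaurin cells, and 6.61%, 3.3% and 9% in DMSO cells.

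Set in order, the 6 group levels of TXNIP were highest in enzastaurin and DMSO cells at 4 h, which overlapped, followed by enzastaurin cells at 10 h. The enzastaurin arrays at 18 h (3188 to 3346) then lay within the range of the DMSO arrays at 10 h (3073 to 3435), and the DMSO arrays at 18 h were lowest. For ARRDC4 the enzastaurin arrays at 4 h were highest, those at 10 h (1736 to 1885) lay within the DMSO arrays at 4 h (1608 to 1903), and those at 18 h (951 to 1279) overlapped the DMSO arrays at 10 h (890.3 to 1054). For both genes, then, an enzastaurin group overlapped an earlier DMSO group. No contrast between groups that differ in both treatment and time was tested.

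TXNIP and ARRDC4 also had the most similar courses among the members. Likeness was measured as the root mean square difference of the 6 group means on the log2 scale, each gene centred on its own mean, and it carries no test. For ARRDC4, TXNIP ranked 1 of 12375 other genes (0.17, against a median of 0.72). It was followed by KIF26B, a kinesin family gene (0.19), the annexin ANXA3 (0.20), the cell adhesion gene NTM (0.24) and the RNA helicase DDX5 (0.24). For TXNIP, ARRDC4 ranked 7 (0.17, median 0.67), after ANXA3 (0.09), MGP, a secreted matrix protein (0.11), DDX5 (0.11), NTM (0.12), TMEM45A (0.14) and 1 other gene. ARRDC2, ARRDC3 and ARRDC1 ranked 3448, 3882 and 10738. All genes share the same 18 arrays in this measure.

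Genes that act with TXNIP were taken from 7 lists holding 75 genes, of which 59 passed the level filter. At 4 h 2 were higher and 2 lower in enzastaurin cells. At 10 h 4 were higher and 3 lower, and at 18 h 7 were higher and 8 lower. Among all tested genes 0.558%, 3.77% and 8.1% were higher and 1.25%, 4.69% and 7.9% lower at these times. The median log2 changes of the listed genes were 0.03, 0.00 and -0.05. For list genes, rose and fell mean higher and lower in enzastaurin cells than in DMSO cells, unless a span of time is named.

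Among MondoA, ChREBP, MLX and their MXD partners, 7 of 9 genes were tested, and 1, 0 and 0 were higher and 0, 0 and 2 lower at 4 h, 10 h and 18 h (median changes 0.09, -0.28 and -0.14). MLXIP, the gene of MondoA, averaged 973 ± 152 in enzastaurin cells and 1298 ± 106 in DMSO cells at 18 h (SD, n = 3 each). Its log2 change was -0.42 (adjusted p = 0.0164), opposite in sign to that of TXNIP. The call was lost without DMSO 18 h replicate 2 or 3 or enzastaurin 18 h replicate 2 (adjusted p up to 0.105), with array medians subtracted, and with the mean over its probe sets. MLX changed by 0.09, 0.08 and 0.12 and passed no test. MLXIPL, the gene of ChREBP, lay under the filter with a mean of 44.4. MXI1, a MYC antagonist, was 0.54 higher at 4 h (adjusted p = 0.0472), a call lost without any 1 of the 6 arrays. The MXI1 call was also lost under 7 of 13 alternative settings. MXD3 was 1.26 lower on the log2 scale at 18 h (a change of -1.26, adjusted p = 0.0143), a call lost without DMSO 18 h replicate 1 or 3.

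Of other known ChREBP and MondoA target genes 8 of 12 were tested, and 0, 2 and 3 were higher and 1, 1 and 1 lower at the 3 times (median changes 0.07, 0.31 and 0.31). FASN, the fatty acid synthase, was higher in enzastaurin than in DMSO cells by 0.77 at 10 h (adjusted p = 0.00598) and by 1.26 at 18 h (adjusted p = 2.15e-05). HK2, a hexokinase that makes glucose 6-phosphate, was higher by 0.46 (adjusted p = 0.00581) and 0.74 (adjusted p = 2.36e-05) at these times. Its mean over all probe sets, 2 of which lay under the filter, ended both calls (-0.14 and 0.23). In DMSO cells FASN fell by 0.90 and HK2 by 0.72 on the log2 scale between 4 h and 18 h, calls that the mean over probe sets also ended. In enzastaurin cells FASN changed by 0.11 (adjusted p = 0.681) and HK2 by -0.01 (adjusted p = 0.943) over that span. PFKFB3, which makes the activator of phosphofructokinase, fell by 0.57, 0.63 and 0.81 at the 3 times (adjusted p = 0.00403, 0.000583 and 1.41e-05), and its 4 h call was lost with array medians subtracted (adjusted p = 0.151). ACACA, an acetyl-CoA carboxylase named after its values were seen, rose by 0.43 at 18 h (adjusted p = 0.00702). The targets other than the members thus moved in both directions.

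**Figure D4:**
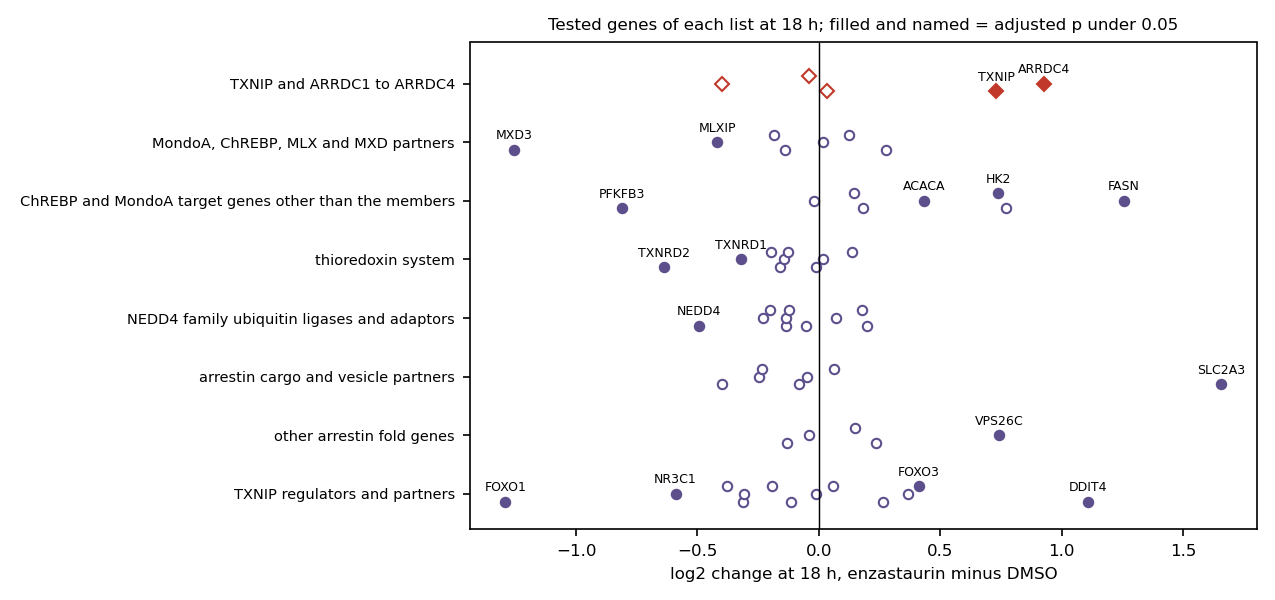
Log2 change at 18 h, enzastaurin minus DMSO, of the 5 members (red diamonds) and of the tested genes of each list (circles), with filled and named symbols for adjusted p under 0.05. TXNIP (0.73) and ARRDC4 (0.93) lie to the right, and the called genes of the lists lie on both sides of 0.

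In the thioredoxin system 9 of 11 genes were tested, none was higher, and 0, 1 and 2 were lower (median changes -0.03, -0.04 and -0.14). TXN, the thioredoxin that TXNIP binds, averaged 22720 ± 1502 in enzastaurin cells and 22450 ± 1659 in DMSO cells at 18 h (SD, n = 3 each), a log2 change of 0.02 (adjusted p = 0.92). The thioredoxin reductase TXNRD1 fell by 0.28 at 10 h (adjusted p = 0.0248) and by 0.32 at 18 h (adjusted p = 0.00539), and the mitochondrial TXNRD2 fell by 0.64 at 18 h (adjusted p = 0.00396). With the mean over a gene's probe sets none of these calls held. The other probe set of each gene lay under the filter, with means of 29.98 (TXNRD1) and 94.42 (TXNRD2). The 10 h call of TXNRD1 was also lost in the fit over every probe set (adjusted p = 0.0798) and without DMSO 10 h replicate 2 or 3 or enzastaurin 10 h replicate 1 or 2. It was lost too with no level filter, with array medians subtracted and with no trend. The 18 h call of TXNRD1 was lost with only the groups compared.

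Of NEDD4 family ligases and their adaptors 10 of 11 were tested, with 1 call at the 3 times (median changes 0.02, -0.0021 and -0.13). That was NEDD4, a partner of alpha-arrestins, which fell by 0.49 at 18 h (adjusted p = 3.08e-05), with means of 1823 ± 159 in enzastaurin cells and 2564 ± 34.7 in DMSO cells (SD, n = 3 each). Of the cargo and vesicle partners 7 of 10 were tested, with 1 call (median changes -0.03, 0.06 and -0.08). The glucose transporter gene SLC2A3 rose by 1.66 at 18 h (adjusted p = 5.59e-06), averaging 1117 ± 137 in enzastaurin cells and 346 ± 68.3 in DMSO cells (SD, n = 3 each). Its main probe set may also bind the near-identical SLC2A14. At 10 h this probe set changed by 0.29 and was not called (adjusted p = 0.692 in the fit over every probe set). In that fit the other SLC2A3 probe sets were higher by 0.79 (adjusted p = 0.00855) and 1.01 (adjusted p = 0.00227) at 10 h. At 18 h they were higher by 1.94 (adjusted p = 1.15e-07) and 2.32 (adjusted p = 3.9e-08). Whether they also bind SLC2A14 was not tested. SLC2A1, whose product TXNIP removes from the cell surface and which was named after its values were seen, changed by -0.16, -0.05 and -0.23 and passed no test. Among other arrestin fold genes 5 of 8 were tested, and VPS26C, a retriever complex subunit, was the 1 call, 0.74 higher at 18 h (adjusted p = 0.000714, median changes of the list 0.02, 0.15 and 0.15).

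Of known regulators and partners of TXNIP 13 of 14 were tested, and 1, 2 and 2 were higher and 1, 1 and 2 lower (median changes 0.08, 0.05 and -0.11). DDIT4 (REDD1), a stress protein that forms a complex with TXNIP, rose by 2.25, 1.84 and 1.11 at the 3 times (adjusted p = 8.17e-10, 4.33e-09 and 1.73e-06). It differed in course from TXNIP: its effect at 18 h was below that at 4 h by a log2 difference of -1.14 (adjusted p = 0.000246). From 4 h to 18 h DDIT4 rose by 1.54 in DMSO cells (adjusted p = 2.61e-08) and by 0.40 in enzastaurin cells (adjusted p = 0.0165). The rise in enzastaurin cells was not called without enzastaurin 4 h replicate 1 or 2 or enzastaurin 18 h replicate 3, or with array medians subtracted. The forkhead factor FOXO3 rose by 0.30 at 10 h (adjusted p = 0.0122) and 0.41 at 18 h (adjusted p = 0.000329). Its 10 h call was lost without DMSO 10 h replicate 1 or enzastaurin 10 h replicate 2 or 3, and with array medians subtracted (adjusted p = 0.125). Its 18 h call was lost with the mean over its probe sets (0.10). That mean takes in a probe set under the filter, with a mean of 34.02 and a change of -0.86 at 18 h. In the fit over every probe set the main FOXO3 probe set changed by 0.41 at 18 h (adjusted p = 0.0013). The remaining FOXO3 probe sets changed by 0.53 (adjusted p = 0.000142) and 0.33 (adjusted p = 0.184). FOXO1, named after its values were seen, changed by -1.29 at 18 h (adjusted p = 0.000509).

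The glucocorticoid receptor gene NR3C1 fell by 0.59 at 18 h (adjusted p = 1.02e-05). NFYB, a subunit of the factor that binds CCAAT boxes, fell by 0.43 at 4 h (adjusted p = 0.0457), a call lost without any 1 of the 6 arrays. The NFYB call was also lost under 8 of 13 alternative settings. The kinase gene AKT2 fell by 0.55 at 10 h (adjusted p = 0.0177), a call lost without DMSO 10 h replicate 2 or 3 or enzastaurin 10 h replicate 1 and not shared by the mean over its probe sets (0.08). The AKT2 call was also lost with array medians subtracted and with only the groups compared.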

How the data were processed

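Scaled intensities of 54613 probe sets on 18 arrays were taken from the authors' deposited value table. Per the submitters' processing notes they were made with GCOS 1.2, and how that software was set is not given in the sources used here. The deposited intensities have a 2% trimmed mean of 498.2 to 498.5 on every array. The table holds no detection calls, and the number of arrays limits the precision.

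Platform annotation named 1 gene for 41091 probe sets, several for 1801 and none for 11721. Symbols were updated by gene identifier to RefSeq GRCh38.p14, which matched 41037. The test used limma 3.58.1 in R 4.3.3 on log2(intensity + 16), with 1 probe set per gene, the brightest by mean log2 value. It kept the 12376 genes at or above the median level of all probe sets, and fitted 6 group means with a trended prior and Benjamini-Hochberg adjustment over all genes, calling adjusted p under 0.05. A fold change understates the change of dim genes. The procedure was tested on simulated data. Every probe set was also fitted on its own. Same-numbered arrays showed no large shared deviation (correlations -0.133 to 0.186, median 0.011). This cannot tell whether replicate numbers pair arrays, since a weak pairing would give similar values, and the labels do not say.

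The members and lists were chosen with earlier results of these data known. Genes named beside the members were those called in each list, up to 3 per list and time by smallest adjusted p, plus MLXIP, MLXIPL, MLX and TXN, and the 5 genes most similar in course to each member whose group means spanned at least 1 log2 unit. Figures were drawn with matplotlib 3.10.9 in Python 3.11.15.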

Additional observations from a re-analysis of the deposited data

Results flagged for a closer look

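The enzastaurin effect on 2 genes differed between exposure times by a test of the difference itself. For TXNIP the log2 change, enzastaurin minus DMSO, was 0.73 at 18 h and 0.10 at 4 h, a difference of 0.63 (limma, adjusted p = 9e-04). For ARRDC4 the change was 0.93 at 18 h and 0.41 at 4 h, a difference of 0.52 (limma, adjusted p = 0.0228). The 3 arrays of a group were too few for a check of single arrays standing apart.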

How the results depend on the processing

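Alternatives changed the offset (1 or 64), the level filter (none, or the brightest 25%), the scaling (quantile, or array medians subtracted), the probe set of a gene (mean, or each on its own, among those above the filter or, added after seeing the data, with no filter), array weights, the trend, the groups fitted, a replicate block and each single array left out. The calls of TXNIP between treatments at 10 h and 18 h and of ARRDC4 at 10 h and 18 h held under all of these for the main probe sets, while the third TXNIP probe set, 201008_s_at, was not called at 10 h (0.36, adjusted p = 0.167). Subtracting array medians moved the median gene by 0.12 at 4 h.

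ARRDC4 at 4 h was not called with medians subtracted (0.53), with no trend (0.41) or in the fit over every probe set with no filter (0.41), nor, with log2 changes of 0.34 to 0.46, without 5 of the 6 arrays. The count of members called at 4 h was then 0, and ran from 0 to 1 over the arrays left out. The ARRDC4 effect at 18 h minus 4 h was not called with medians subtracted (0.40; single arrays left out, 0.40 to 0.61) or in the fit over every probe set with no filter (0.52). With medians subtracted its fall from 4 h to 10 h in enzastaurin cells was not called (-0.38). The ARRDC3 fall from 10 h to 18 h in enzastaurin cells ran from -0.56 to -0.36 over single arrays left out, and was not called in the fit over every probe set with no filter (-0.45).

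Newly called were the growth of the TXNIP effect from 4 h to 10 h (0.41 among the brightest 25%, 0.46 by quantile) and that of ARRDC4 (0.50 with array weights). The ARRDC1 rise from 4 h to 18 h in DMSO cells was newly called with no trend (0.60). So was the ARRDC3 rise from 4 h to 10 h in DMSO cells (0.34 among the brightest 25% and with only the groups compared, 0.45 with medians subtracted). Over single arrays left out this ARRDC3 rise ran from 0.23 to 0.44, and only 1 of the 6 omissions gave a call (adjusted p 0.0296 to 0.261). ARRDC3 from 4 h to 18 h in enzastaurin cells ran from -0.36 to -0.14 and was called without enzastaurin 4 h replicate 2.

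Among the members signs turned only for uncalled values near 0. For effects at 18 h minus 10 h these were ARRDC4 (-0.0024 with offset 64, -0.0016 with medians subtracted, -0.10 to 0.11 over arrays left out) and ARRDC1 (-0.0015 by quantile, -0.0034 with medians subtracted, -0.0616 with array weights, -0.18 to 0.22 over arrays). For ARRDC2 they were the effect at 18 h minus 4 h (-0.0302, -0.0889; -0.11 to 0.21), the DMSO change from 4 h to 10 h (0.0182, 0.0844; -0.16 to 0.0978), each by quantile, with medians subtracted and over arrays left out, the 4 h change (0.0455 with medians subtracted; -0.19 to 0.0522), the 18 h change (0.0011 with array weights; -0.18 to 0.14) and the enzastaurin change from 10 h to 18 h (-0.0516 to 0.36). ARRDC3 turned at 18 h (-0.0784 to 0.12) and from 4 h to 18 h in DMSO cells (-0.0013 by quantile; -0.0636 to 0.0685), and ARRDC1 from 4 h to 18 h in enzastaurin cells (-0.20 to 0.0606).

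With the replicate block no call of a member changed: at 18 h TXNIP kept 0.73 (adjusted p = 3.39e-06) and ARRDC4 0.93 (adjusted p = 1.08e-06). Alternatives for the list genes were chosen after seeing the data. With the mean over probe sets HK2 turned at 10 h (-0.14), in its effect at 18 h minus 4 h (-0.18) and from 4 h to 18 h in DMSO cells (0.30), AKT2 at 10 h (0.0791) and in DMSO cells (-0.0608), and TXNRD1 in DMSO cells (-0.17). ARRDC1 had no value under the brightest 25% or the mean over probe sets, and ARRDC2 none under the first. The means of HK2 and TXNRD1 take in probe sets under the filter. The cause of these shifts was not tested. With 3 arrays a group, changes of dim genes such as ARRDC1 and ARRDC2 had intervals about 1 log2 unit wide.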
